A study of Mus musculus with 2 samples.

Results

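Imprinted genes are expressed from the copy inherited from 1 parent. The 36 genes described here are a list of well known imprinted genes and of genes that host them or share their domains, given by name with earlier results of these data known, and all 36 were found once in the GENCODE vM21 annotation of the mouse assembly mm10, among 55413 annotated genes. They fall into 19 imprinted domains. Open chromatin was mapped in them by DNase-seq, which sequences the places where the nuclease DNase I cuts nuclear DNA, using whole spleens from B6CASTF1/J females, offspring of a C57BL/6 by CAST cross, at an age of 36 days. There was 1 group of 2 libraries, called replicate 1 and replicate 2, without treatment or edited allele. The females carry different numbers in the labels, yet the same donor entry is given for both, so the spread between them may in part be technical. The files do not separate the alleles, so each value adds up the maternal and the paternal copy, and no value says which copy was cut. No test between groups was possible, and values are given per library.

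Each imprinted domain is governed by a control region that is methylated on the chromosome of 1 parent only, a mark set in the germ line and kept after fertilisation by ZFP57, a zinc finger protein that binds the hexamer TGCCGC when its CpG is methylated. In many domains the control region is also a promoter that works on the unmethylated copy, as at the antisense RNAs Kcnq1ot1 and Airn, which silence their neighbours. At H19 and Igf2 the control region lies upstream of H19, and the insulator protein CTCF binds its unmethylated copy and blocks enhancers from reaching Igf2. Many imprinted genes are growth regulators that are high in the embryo and the placenta and fall after birth.

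The sequences that the results turn on come first, all read 5′ to 3′ from the reference genome in the direction of the gene's transcription. The control region upstream of H19 held 4 matches to a CTCF core of the letters CCGCNNGGNGGCAG, a motif chosen after the values were seen because the general CTCF consensus found fewer of these sites. They stand in capitals, with 10 bases on either side, in order from the H19 start outward.
H19 core 1 (chr7:142580299-142580332, minus strand): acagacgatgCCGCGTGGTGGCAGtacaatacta
H19 core 2 (chr7:142580754-142580787, minus strand): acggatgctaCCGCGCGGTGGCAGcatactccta
H19 core 3 (chr7:142581780-142581813, minus strand): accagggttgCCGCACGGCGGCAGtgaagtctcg
H19 core 4 (chr7:142582024-142582057, minus strand): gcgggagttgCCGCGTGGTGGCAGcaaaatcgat

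In the next 4 sequences the capitals mark the ZFP57 hexamer TGCCGC on either strand (GCGGCA is the same hexamer on the opposite strand). The first 2 are whole peaks inside the noncoding RNAs Kcnq1ot1 and Peg13. The sequences of Mcts2 and of the internal start of Inpp5f are the parts of the peaks that lie upstream of the start. In Mcts2 the later capitals CCGGAAGT are a core bound by ETS factors, and in Inpp5f the first capitals are a match to the consensus of NRF1, a factor that binds unmethylated CpG-rich promoters.
Kcnq1ot1 (chr7:143295641-143295880, minus strand): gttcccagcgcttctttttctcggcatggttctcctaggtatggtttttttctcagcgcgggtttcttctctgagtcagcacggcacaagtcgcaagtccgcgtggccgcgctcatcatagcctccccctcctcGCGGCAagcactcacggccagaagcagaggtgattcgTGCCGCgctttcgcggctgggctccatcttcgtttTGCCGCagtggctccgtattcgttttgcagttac
Peg13 (chr15:72809961-72810140, minus strand): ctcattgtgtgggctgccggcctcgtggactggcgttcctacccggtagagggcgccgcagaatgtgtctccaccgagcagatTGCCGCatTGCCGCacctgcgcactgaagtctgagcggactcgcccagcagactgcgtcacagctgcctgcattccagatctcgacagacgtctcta
Mcts2 (chr2:152686821-152687034, plus strand): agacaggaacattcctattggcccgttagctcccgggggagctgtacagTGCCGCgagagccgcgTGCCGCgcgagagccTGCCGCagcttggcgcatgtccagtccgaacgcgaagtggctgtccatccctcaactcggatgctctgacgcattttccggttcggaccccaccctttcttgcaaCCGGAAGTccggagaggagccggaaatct
Inpp5f internal start (chr7:128688341-128688488, plus strand): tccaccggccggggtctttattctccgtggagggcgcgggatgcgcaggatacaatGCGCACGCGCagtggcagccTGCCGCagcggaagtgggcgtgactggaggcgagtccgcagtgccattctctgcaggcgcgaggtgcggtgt

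The last 3 hold matches covered in at least 1 library by a footprint, a short stretch protected from cutting inside open chromatin. Capitals mark 2 YY1 cores (GCCATNTT) in the intronic peak of Peg3, an NRF1 match downstream of the Zrsr1 start with 10 bases on either side, and a CTCF consensus match in an intron of H13, where matches on opposite strands overlap.
Peg3 intron (chr7:6729469-6729683, minus strand): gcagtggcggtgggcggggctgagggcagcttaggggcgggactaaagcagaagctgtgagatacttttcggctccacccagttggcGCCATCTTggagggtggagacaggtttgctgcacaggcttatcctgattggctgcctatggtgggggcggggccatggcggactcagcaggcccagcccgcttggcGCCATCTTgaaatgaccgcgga
Zrsr1 site (chr11:22972935-22972964, plus strand): gccttcgactGCGCATGCGCacattcaact
H13 intron (chr2:152696861-152697060, plus strand): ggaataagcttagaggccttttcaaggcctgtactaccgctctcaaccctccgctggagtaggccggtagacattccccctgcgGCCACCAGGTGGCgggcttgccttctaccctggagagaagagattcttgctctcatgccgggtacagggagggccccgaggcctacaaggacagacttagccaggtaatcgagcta

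Most imprinted start sites were without a peak in at least 1 library. A promoter peak is a peak of the stricter deposited list that touched the 1 kb on either side of a start site. Of the 36 genes, 15 carried such a peak in replicate 1 and 20 did so in replicate 2, with a mean of 17.5 ± 3.54 (SD, n = 2). The 15 genes of replicate 1 all had one in replicate 2, which is 41.7% of the list, 5 genes had one in replicate 2 alone, and 16 had none. Among all annotated genes the share was 27.0% in replicate 1, 29.7% in replicate 2 and 26.7% in both. Among protein-coding genes 53.1% had one in both.

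Starts were also divided by CpG content. A start was called CpG-rich where observed over expected CpG reached 0.6 within 500 bases on either side. Of all genes with such a start 80.5% were called in both libraries, and of the other genes 9.36%. Of the 23 list genes with a CpG-rich start 10 were called in both, or 43.5%, and of the 13 without 5 were, or 38.5%. At this cut the share of the list thus hardly differed with CpG content, while that of all genes did. The cut was not varied, and 4 called genes lay close to it. Airn (0.586) and Peg13 (0.585) were just under it, and Peg3 (0.603) and Usp29 (0.61) just over it. These shares describe a chosen list and are not a test.

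**Figure D1:**
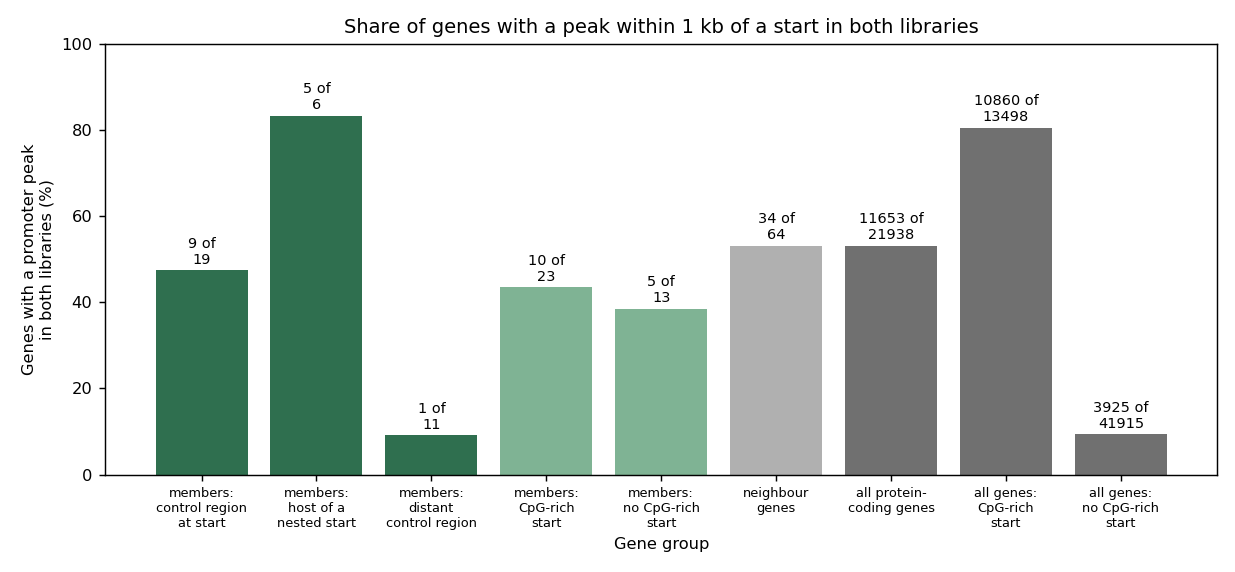
Share of genes called in both libraries, in percent (bars from 0), with the count above each bar. The 23 list genes with a CpG-rich start stand at 43.5%, beside 80.5% of all genes with such a start.

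The list was divided further by the role of a start in its domain. Roles were assigned by hand, also with earlier results known, so the split is a description. Among 19 genes with the control region at a start, 9 carried a promoter peak in replicate 1, 14 did so in replicate 2, and 9 (47.4%) in both. Of 6 genes that host such a start inside their body, 5 (83.3%) had one in both. Of 11 genes under a distant control region, 1 (9.09%) had one in both and 10 had none in either. In the spleen as a bulk tissue, a peak present in fewer cells and a weaker peak in each cell cannot be told apart.

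**Figure D2:**
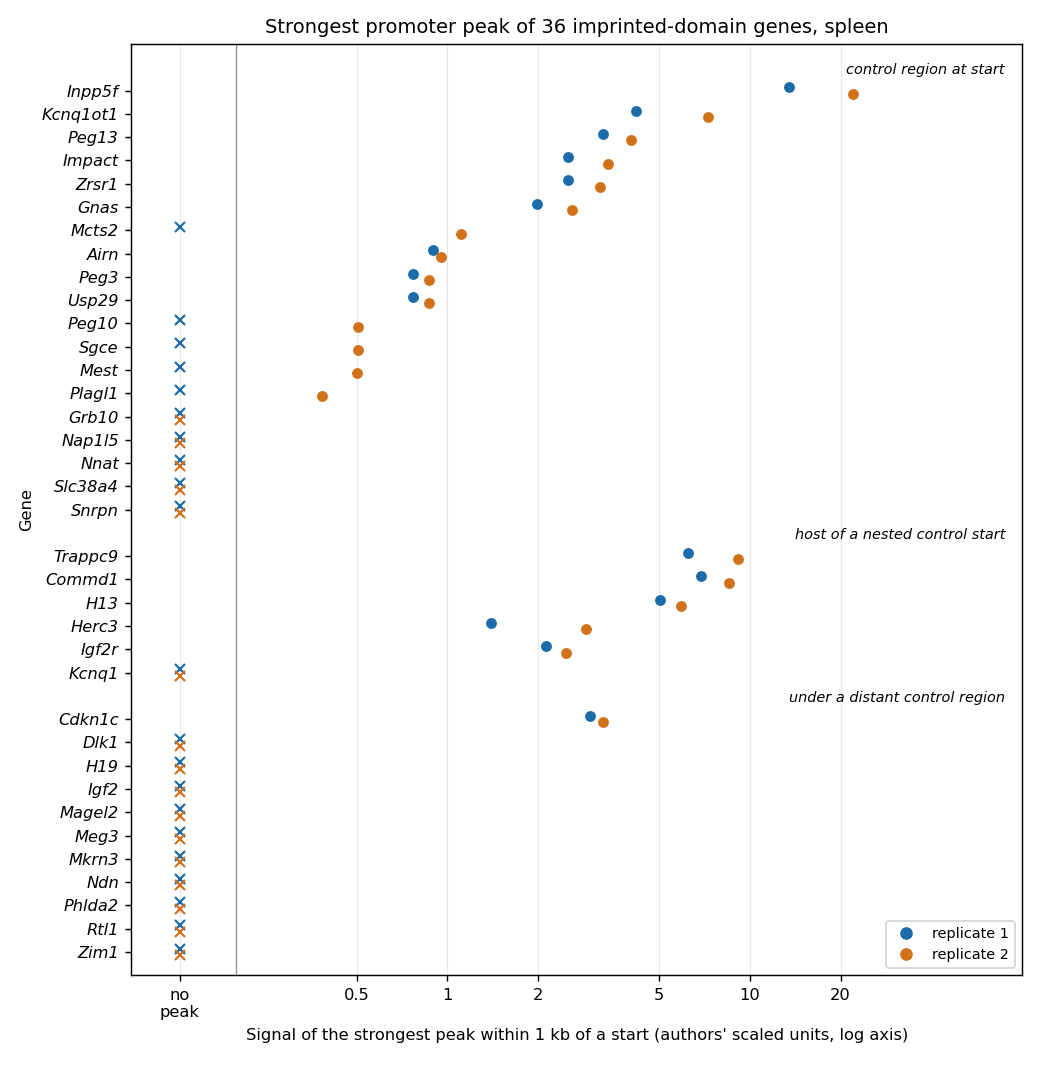
Signal of the strongest promoter peak of each of the 36 genes (authors' scaled units, log axis) in replicate 1 (blue) and replicate 2 (orange). Crosses on the left mean no promoter peak. The 5 genes found in replicate 2 alone lie at or below 1.112.

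Signal is the authors' own value per peak. Its scale is not known, so values and ratios are read within a library, and a value in 1 library is not a level that can be set against the other. The antisense and noncoding RNAs that start in control regions were led by Kcnq1ot1, which had 3 promoter peaks in replicate 1 and 4 in replicate 2. The strongest, at -111 bases from its start (negative is upstream), had a signal of 4.199 in replicate 1 and 7.273 in replicate 2 and stood within the top 18.2% and the top 9.16% of peaks. It was the strongest peak of the whole Kcnq1 domain. Weaker peaks followed along the first 1197 bases of the RNA. Among them the one printed above, with 3 hexamers, had signals of 0.8651 and 0.7585 and held 5 and 3 footprints.

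Peg13, a noncoding RNA inside Trappc9, had 3 and 5 promoter peaks. The strongest lay 274 bases into the RNA and had signals of 3.281 and 4.054. Its printed sequence has 2 hexamers only 2 bases apart. Airn, the antisense RNA that silences Igf2r, was much weaker. Its only promoter peak had signals of 0.8968 and 0.9533, within the top 71.4% and 57.5%. Thus the start of Airn was open in both libraries but was among the weaker peaks of each.

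Nested retrocopies are copies of a spliced RNA that landed inside another gene, and the starts of those listed here were taken as control regions. Zrsr1, a copy of a splicing factor gene within Commd1, had 1 peak at its start (1.424 and 2.26) and a stronger one 925 bases downstream (2.5 and 3.188). The NRF1 match printed above lies in the stronger peak and was covered by a footprint in both libraries. Mcts2, a copy within H13, had no promoter peak in replicate 1 and a peak with a signal of 1.112 in replicate 2, with 5 footprints. All 3 of its hexamers lie upstream of the start. Nap1l5, a copy within Herc3 related to nucleosome assembly factors, had no peak of the stricter list in either library. The internal start of Inpp5f, which encodes an inositol phosphatase, had signals of 1.519 and 1.753, and its NRF1 match was covered by a footprint in both. Inpp5f counts among the genes called in both libraries with either of its starts.

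The host genes had the stronger starts in each pair but that of Kcnq1. Commd1, a copper handling protein, had signals of 6.889 and 8.569, which is 2.76 and 2.69 times those of the strongest Zrsr1 peak. That peak also lies at the start of a Commd1 transcript outside the basic set, and against the peak at the start of Zrsr1 itself the ratios were 4.84 and 3.79. Trappc9, a subunit of a vesicle trafficking complex, had 6.267 and 9.149, or 1.91 and 2.26 times those of the strongest Peg13 peak and 2.75 and 2.92 times those of the peak that covers its start. Igf2r, the receptor that clears insulin-like growth factor 2, had 2.121 and 2.475, or 2.37 and 2.6 times those of Airn. In each of these pairs the host was the stronger in both libraries with either choice of peak.

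H13, a signal peptide peptidase, had 5.053 and 5.93, in replicate 2 5.33 times the signal of Mcts2. Herc3, a ubiquitin ligase family gene, had 1.393 and 2.88 beside no peak at Nap1l5. The first start of Inpp5f had 13.49 and 21.92, within the top 0.853% and 0.437% of peaks, and stood 8.88 and 12.5 times above its internal start. The start of Kcnq1, a potassium channel, had no peak in either library, while Kcnq1ot1 inside it had one of the strongest of the list. The pairs thus ran in the same direction in 6 of 7 cases, counting cases in which the nested start had no peak.

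**Figure D3:**
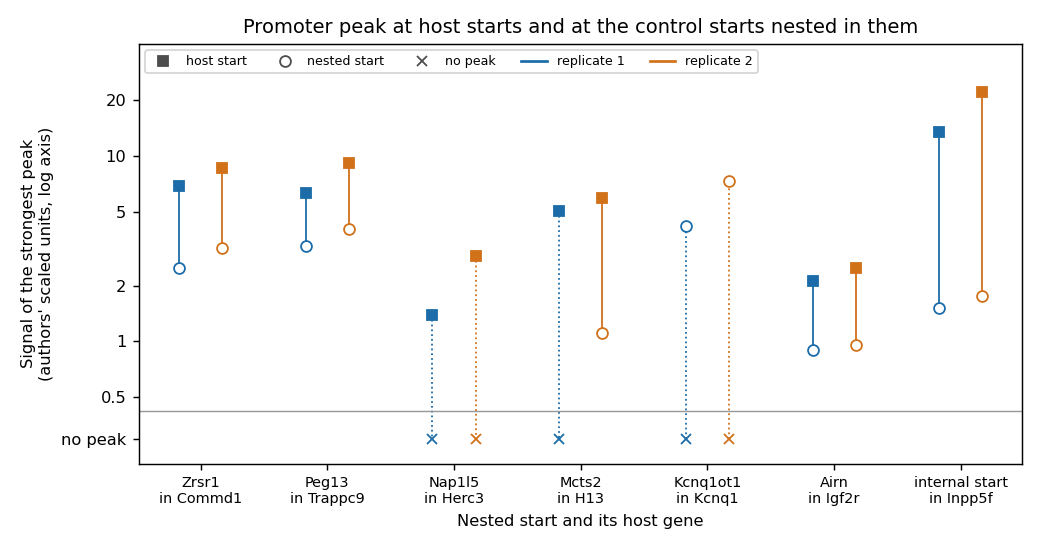
Signal of the strongest promoter peak (authors' scaled units, log axis) at host starts (squares) and at the starts nested in them (open circles), for replicate 1 (blue) and replicate 2 (orange), with crosses for no peak. The host is higher in 6 of the 7 pairs, and Kcnq1ot1 in Kcnq1 is the reverse.

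Peg3, a zinc finger protein of growth and maternal behaviour, and Usp29, a deubiquitinase family gene, start next to each other in opposite directions. They share 1 peak, which lay 845 bases into Peg3, in an intron, and not at the start itself. Its signals were 0.7702 and 0.8662, and it held 3 footprints in each library. With a window of 500 bases both genes lost their call. The first 4 kb of Peg3 held 12 YY1 cores, all on the same strand. Of these, 2 lay in a peak in replicate 1 and 3 in replicate 2, and 2 were covered by a footprint in each. The core at 839 bases was covered in both libraries, the one at 945 bases in replicate 1, and the one at 1689 bases in replicate 2. Around the start proper, no peak was listed.

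Gnas, which encodes the stimulatory G protein alpha subunit, has 4 clusters of starts. The most upstream 2 clusters, which belong to the Nesp and the extra-large transcripts, had no peak within 1 kb. The third cluster, a start of the exon 1A type next to the main promoter and part of the control region, had 2 peaks in each library with a top signal of 1.54 and 2.06. The main start had a top signal of 1.973 and 2.578, with 4 and 3 peaks. Nespas, the antisense RNA of the domain, had signals of 1.118 and 1.092. The strongest peak of the Gnas domain was none of these. It was intronic, 14461 bases past the extra-large start, with signals of 3.365 and 3.434.

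Impact, an inhibitor of a stress kinase, had a promoter peak of 2.511 and 3.398 and a row of peaks in its first 2497 bases, where its control region lies. The CpG-dense peak 1457 bases in had 10 and 7 footprints and signals of 2.395 and 4.049, and was the strongest of its domain by mean rank. All 7 peaks of the Impact domain were found in both libraries.

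Peg10, a gene derived from a retrotransposon and needed for the placenta, and Sgce, a sarcoglycan, share a start region. It held 1 weak peak in replicate 2 (0.5074) and none in replicate 1. A stronger peak lay just outside the window, 1944 bases into Peg10, with signals of 4.653 and 6.53, so a window of 2 kb gave Peg10 a peak in each library. Mest, a hydrolase-like gene, had a signal of 0.5023 in replicate 2 at its downstream start, and Plagl1, a zinc finger factor that restrains growth, 0.3844. Both ranked near the lower end there, within the top 89.1% and 97.1%. In replicate 1 the cut rate track listed runs without a strict peak at some of these starts, with a lowest FDR of 6.46e-04 at Mest, 2.60e-03 at Plagl1 and 4.88e-03 at Mcts2.

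The 5 genes called in replicate 2 alone were thus Mcts2, Peg10, Sgce, Mest and Plagl1. Signals below 500 steps lay within 0.01 step of whole multiples of a step, 0.0106 and 0.00513 in the libraries in order, which gives a ratio of 2.06, and replicate 2 had 60683 peaks against 42454. When replicate 2 was limited to its 42454 strongest peaks, of signal 0.743 or more, it kept 16 of its genes, among the 5 Mcts2 alone. With the more lenient deposited list, Mcts2, Mest, Peg10 and Plagl1 had a promoter peak in both libraries. The part of sequencing depth in these 5 calls was not tested. The deposited signal of the 15 genes called in both was the higher number in replicate 2 in 15 of 15, and over 39802 shared peaks the median ratio of replicate 2 to replicate 1 was 1.22, which on an unknown scale is not a difference in opening.

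No promoter peak was found at 5 genes with the control region at a start. Snrpn, a splicing protein gene at the centre of the domain of Prader-Willi syndrome, had none in either library. In replicate 2 it had 1 footprint and 1 peak of the more lenient list. The lowest FDR of the cut rate track there was 4.23e-03. Grb10, an adaptor that restrains insulin signalling, had none at its 3 start clusters, and its 2 peaks were intronic, the stronger with signals of 0.8968 and 1.056. Nnat, neuronatin, had none, while Blcap, the gene around it, had signals of 3.397 and 3.444. Slc38a4, an amino acid transporter, had 0 peaks in a window of 81.14 kb, and Nap1l5 was given above.

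**Figure D4:**
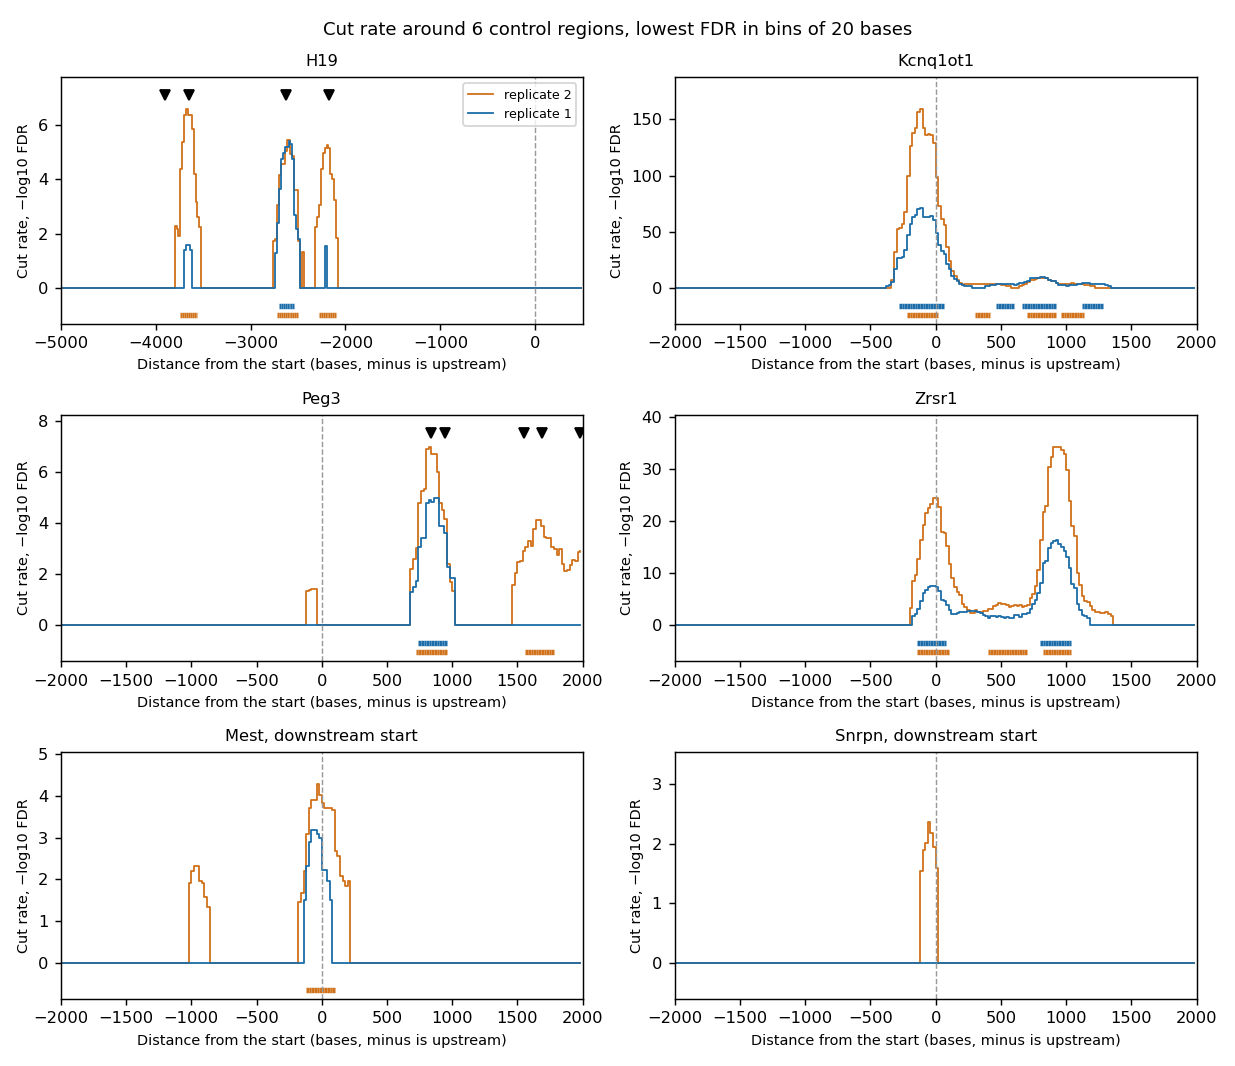
Cut rate as −log10 FDR (lowest FDR in bins of 20 bases, 0 where no run under 0.05 is listed) against distance from the start in 6 control regions, for replicate 1 (blue) and replicate 2 (orange). The marks under each curve are peaks of the stricter list. The triangles are the 4 CTCF cores at H19 and those YY1 cores of Peg3 that fall within the span of its panel. The vertical scale differs between panels, from the lowest at Snrpn to the highest at Kcnq1ot1.

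Upstream of H19 each listed peak held a CTCF core, but not every core lay in a peak. The motif was chosen with these values seen, so this is a description and no support. The cores lie at -2172, -2627, -3653 and -3897 bases from the H19 start. Replicate 1 had 1 peak there, over core 2, with a signal of 0.8335, and replicate 2 had 3 peaks, over cores 1, 2 and 3, with signals of 0.4715, 0.4715 and 0.5638. Core 2 was covered by a footprint in both libraries, core 3 in replicate 2 only, core 1 lay 15 bases from a footprint in replicate 2, and core 4 had neither peak nor footprint. These peaks were weak, within the top 75.3% in replicate 1 and the top 83.8% at best in replicate 2. In replicate 1 core 3 lay in a peak of the lenient list only.

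No other peak was listed in the H19 and Igf2 domain. H19, a noncoding RNA, and all 4 start clusters of Igf2, the fetal growth factor, had neither a peak nor a listed cut rate run within 1 kb. The window taken for the control region of Meg3 and Dlk1, from 10 to 16 kb upstream of Meg3, had no peak in either library. Meg3, a noncoding RNA, had an intronic peak at chr12:109542941-109543100 with signals of 0.5697 and 0.6663, outside the 1 kb window.

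Among the 11 genes under a distant control region, Cdkn1c, a cell cycle inhibitor silenced by Kcnq1ot1, was the exception. Its promoter peak had signals of 2.954 and 3.265 and 5 footprints were counted at the promoter in each library. A pair of further peaks at -3031 and -5450 bases from its start each held a CTCF consensus match under a footprint in both libraries. Phlda2, a brake on placental growth in the same domain, had no promoter peak, but a pair of peaks in both libraries at -3499 bases (1.245 and 0.7842) and -4359 bases (0.7069 and 0.7585). Dlk1, Rtl1 and Meg3, of the growth-regulating Dlk1 domain, had no promoter peak. Ndn, Magel2 and Mkrn3, of the Snrpn domain, had none, nor did Zim1. Ndn had the only peak of the Snrpn domain, 1736 bases downstream of its start, in replicate 2, with a signal of 0.328.

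Counting control regions instead of genes, and adding those upstream of H19 and of Meg3, gave 21 regions. A region was taken as the 1 kb on either side of each start of a gene, which need not match the methylated stretch. For Inpp5f and Gnas it includes the first and the main start, and for Impact it leaves out the intronic peaks. The start of Nespas in the Gnas domain, with a peak in both libraries (1.118 and 1.092), was listed as a neighbour and is not among the 21. Peaks lay in 10 of these regions in replicate 1, 15 in replicate 2, 10 in both and 6 in neither. Peg3 with Usp29 and Peg10 with Sgce share their windows. Counted once each, 9 of 19 regions had a peak in both libraries, 4 in replicate 2 only, 0 in replicate 1 only and 6 in neither.

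At the median, the promoter peaks of the list ranked lower than those of protein-coding genes. Over the 15 genes with one in both libraries, the median rank was the top 29.7% in replicate 1 and the top 20.7% in replicate 2, with median signals of 2.51 and 3.27. Over the 11653 protein-coding genes with one in both, it was the top 14.4% and 10.4%, with median signals of 5.15 and 6.54. The hosts were nearer to that level, with medians of 5.05 and 5.93, than the genes with a control region at a start, with 2.5 and 3.19. These medians cover only genes that had a peak and use the strongest promoter peak of each. The 15 genes include the noncoding RNAs Kcnq1ot1, Airn and Peg13, and the peak shared by Peg3 and Usp29 counts for each. Among the genes with a control region at a start, Inpp5f thus entered with its first start (13.49 and 21.92). Gnas entered with its main start (1.973 and 2.578).

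Other genes in or next to the domains, listed as 64 neighbours, had an open start in 34 cases in replicate 1, 37 in replicate 2 and 34 (53.1%) in both, beside 53.1% of all protein-coding genes. Klf14 (0.3895), Tnnt3 (0.6099) and Ascl2 (0.4818), a factor of the placenta, had one in replicate 2 only. The first 10 in both libraries by alphabet ranged from weak to strong. Their lower end was Asb4 (1.72 and 1.532), Casd1 (1.804 and 1.891), Begain (1.867 and 2.44) and Bag3 (2.806 and 3.757). Blcap, given above, and B3gnt2 (3.513 and 4.479) lay between. The upper end was Cd81, a membrane protein of B cells (4.347 and 4.167), Cep41 (4.895 and 6.007), Ago2, an RNA silencing protein (5.813 and 6.668), and Cars, a transfer RNA synthetase (7.564 and 10.54). Ube3a, named after its values were seen, is a ubiquitin ligase next to the Snrpn domain and had 11.69 and 16.52. Thus list genes without a promoter peak lay near neighbours with strong ones in the Snrpn domain.

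The 19 domains, each the gene bodies with 10 kb on either side and 2800.4 kb in all, held 78 and 115 peaks, a mean of 96.5 ± 26.2 (SD, n = 2). That is 0.279 and 0.411 peaks per 10 kb, beside 0.156 and 0.223 over the genome. The domain windows are set on genes and include promoters of hosts and neighbours, while the genome is counted whole. Windows set on genes in general were not counted, so the difference is not shown to be a trait of imprinted domains. Merged between libraries they made 120 peaks, of which 72 were in both, 5 in replicate 1 only and 43 in replicate 2 only. Of the peaks of replicate 1 93.6% overlapped a peak of replicate 2 (95% Wilson interval 85.9 to 97.2, which covers counting error only), beside 93.8% of all its peaks. Of those of replicate 2 62.6% overlapped a peak of replicate 1 (53.5 to 70.9), beside 65.7% of all. Over the 72 shared peaks, Spearman's rho of the signals was 0.93, a description across peaks that share their sequence between libraries.

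**Figure D5:**
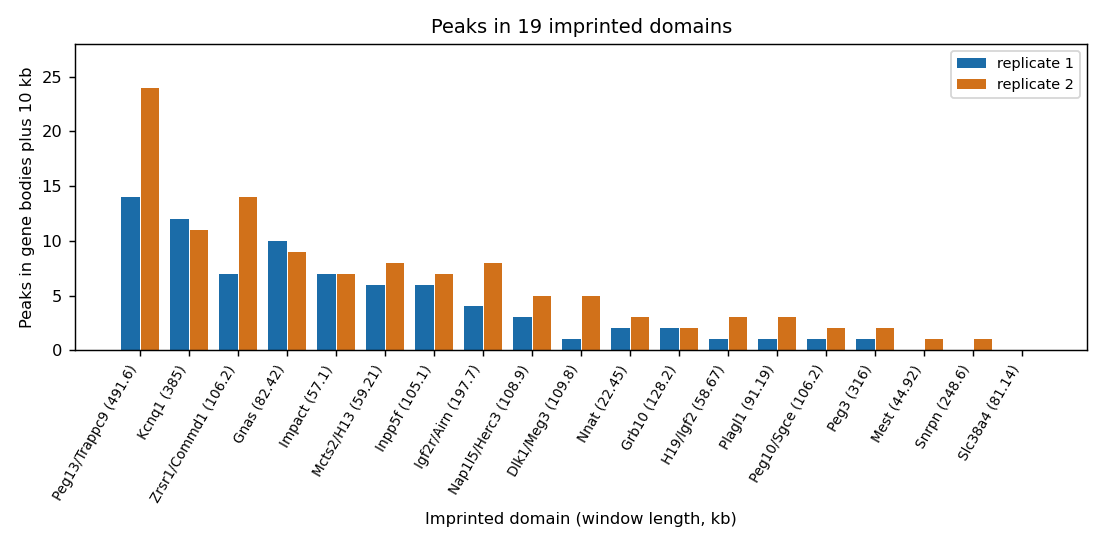
Peaks of the stricter list in each of the 19 domains (bars from 0), in replicate 1 (blue) and replicate 2 (orange), with the length of each window in kb. The Peg13 and Trappc9 domain has 14 and 24 peaks, and the Slc38a4 domain has 0 in each.

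The domains differed widely. Peg13 and Trappc9 had the most peaks, 14 and 24 in 491.6 kb, while the Snrpn genes had 0 and 1 in 248.6 kb and the Peg3 genes 1 and 2 in 316.0 kb. Per length, the Impact domain had 1.23 peaks per 10 kb in each library, the Gnas domain 1.21 and 1.09, and the domain of Mcts2 and H13 1.01 and 1.35. In replicate 2 the Nnat domain (0.891 and 1.34) and that of Zrsr1 and Commd1 (0.659 and 1.32) were as dense as these. The strongest peak of any domain, at chr15:73067481-73067800, lay between genes at -6436 bases from Trappc9. It had signals of 14.08 and 25.43 and ranked 271 and 87 in the 2 libraries, and 26 CpGs lay in it. A further peak at -7856 bases held a CTCF consensus match under a footprint in both libraries.

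The ZFP57 hexamer was searched in windows of 300 bases, on both strands. It was present in 24 of the 115 domain peaks of replicate 2, or 20.9%, beside 11.7% of all 60683 peaks and 11.6% of RefSeq promoter sequences of the same length and build. Within the merged peaks, 10 of 27 promoter peaks of control starts had it (37.0%), 3 of 10 promoter peaks of other list genes and 10 of 77 peaks away from starts. Of those 77, 6 lie in the control region upstream of H19 or early in Impact. Of these 6, 4 had the hexamer, beside 6 of the other 71 (8.45%). The split was made by hand with the peaks already known. The peaks 1197 bases into Kcnq1ot1, 1108 into Peg13, 1667 into Peg3 and 1944 into Peg10, without the hexamer, count among those 71. The remaining 6 merged peaks, at promoters of genes outside the list, were not counted. The hexamer contains a CpG, and the sets of 27, 10 and 77 had medians of 12, 20 and 3 CpGs per peak. The H19-type core was chosen from the sites upstream of H19, and outside those 3 windows it was found in 1 of the 115, at the start of Commd1, so its share in the domains is not compared with that of all peaks. The YY1 core was in 6.09% of domain windows and 5.56% of all peaks, and the CTCF consensus in 4.35% and 2.24%. The NRF1 consensus was in 3.48% and 1.57%, and the ETS core CCGGAAGT in 0.87% and 2.7%. A match is a description of letters and does not show that a factor was bound. The letters were read from the reference genome alone, and differences on the CAST copy were not examined.

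Markers of the cells in the tissue were read the same way. A peak at the start was found in both libraries for 7 of 7 B cell genes and 4 of 5 T cell genes. For 4 erythroid genes the counts were 2 in replicate 1 and 4 in replicate 2, and for 4 macrophage genes 2 and 3. Genes of liver (0 of 4) and of placenta and embryo tissues in which imprinted genes are high (0 of 4) had none in either library. Of 4 neuron genes 2 and 1 had one, and of 4 muscle genes 0 and 1. The part of cell composition in the values of the imprinted genes was not tested.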

How the data were processed

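Per the deposited readme files, each library was processed alone on mm10. Its peaks and its cut rate track came from its alignments, and its footprints from those alignments and that track. Names of the aligner and callers were not given in the sources used here. Peak signal is the value the authors deposited, on a scale that is not given, so the total depth is unknown. The deposited cut rate track holds an FDR, which is a q-value, for runs of bases below 0.05, and the deposited footprints carry a constant FDR threshold of 0.01. Each library has a stricter peak list, used here, and a more lenient one.

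The genes, lists, roles and named neighbours were chosen with earlier results of these data known, and roles were assigned by hand from general knowledge. Neighbours named are those with a promoter peak in 1 library and up to 10 with one in both, in alphabetical order. A peak counted if it touched a window by 1 base, with starts from basic GENCODE vM21 transcripts. The strongest peak of a domain has the best mean rank over the libraries. Sequence came from GRCm38.p6 and promoter windows from RefSeq. Python 3.11.15, pandas 2.3.3, numpy 2.4.6, scipy 1.17.1, pysam 0.24.0 and matplotlib 3.10.9 were used, and the overlap code was tested on simulated data. Peak lists, windows, flanks, start sets and single libraries were varied, with their effect given at the end.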

Additional observations from a re-analysis of the deposited data

How the results depend on the processing

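The 15 genes called in both libraries were 13 with a window of 500 bases, without Peg3 and Usp29, and 17 with 2 kb, adding Meg3 and Peg10. They were 14 when at least 50% of a peak had to lie inside the window, without Usp29, 16 with all annotated transcripts, adding Meg3, and 19 with the lenient list, adding Mcts2, Mest, Peg10 and Plagl1. Limiting replicate 2 to the strongest peaks kept 15. Replicate 2 alone gave 20 and replicate 1 alone 15. Over the alternatives that keep both libraries, control regions with a peak in both ran from 9 to 14, against 10 as reported. Replicate 2 alone gave 15 control regions and replicate 1 alone 10. Neighbours ran from 32 to 38, mean domain peaks from 74.5 to 134 and mean promoter footprints from 99.5 to 178.5. As reported these were 34, 96.5 and 136.5. With the peak closest to the nested start in place of the strongest, an alternative chosen after seeing the data, the host stayed higher in each pair with a ratio, and the ratios of Zrsr1 and Peg13 changed as given above. No paired analysis was possible because the libraries form 1 group. Total depth is unknown, so absence of a peak, above all in replicate 1, means only that none was listed.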
